A study of Mus musculus with 30 samples.

Results

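The complement genes C3, C4b, C1s1, C1ra, Cfb, Serping1, C5ar1 and C3ar1, chosen by name, were followed in 2 mouse colon carcinoma models. All 8 were found among the 53431 genes of the deposited table. The 30 RNA-seq libraries form 8 groups. For both lines, CT-26 and Colon 26, there were 3 cultures, and 4 tumors at each of 100, 400 and 800 mm3. The tumors grew under the skin of the flank of female BALB/c mice after injection of the cultured cells, the age of the mice was not given in the sources used here, and no gene was altered in any group. The recorded volume was 102.9 to 145.86 mm3 in the smallest tumors of either model, 400.47 to 466.73 mm3 in the middle ones and 807.93 to 963.18 mm3 in the largest. The labels describe dosing with antibodies in general terms but name none for any library, and all tumors were taken as untreated. Each model is 1 cell line, and a tumor library mixes RNA of the tumor cells with RNA of the cells of the mouse.

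Complement is a cascade of plasma proteins that marks cells and microbes for uptake or lysis. In the classical pathway C1q binds its target and activates the proteases C1r and C1s, which cleave C4 and C2 to form an enzyme that cleaves C3. Factor B, encoded by Cfb, gives the corresponding enzyme of the alternative pathway, the C1 inhibitor encoded by Serping1 blocks C1r and C1s, and the fragments C3a and C5a act on leukocytes through the receptors C3ar1 and C5ar1. Most plasma complement is made by the liver, and macrophages, fibroblasts and some tumor cells make components locally.

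Total counts were 21384730 to 27856380 per CT-26 culture, 36042940 to 39722586 per Colon 26 culture and within that whole range in the tumors. In these bulk libraries fewer cells of a type and less RNA per cell cannot be told apart. Of the epithelial markers, Epcam was listed at 0 FPKM and Cdh1 at no more than 0.0146 FPKM in every culture of either line, whereas Krt20, another marker of intestinal epithelium, was at 12.5 to 13.2 FPKM in CT-26 and 2.80 to 3.02 FPKM in Colon 26 cultures. The Colon 26 cultures were sequenced deeper than the CT-26 cultures, and their library numbers come from a separate series, so a difference of library series and a difference of cell line cannot be told apart there. The library numbers of all cultures also lie apart from those of the tumors. Library series and growth as a tumor can therefore not be told apart between cultures and tumors. No label names a sequencing run.

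Upstream sequences are shown for C3 and C1s1, which the cultured cells transcribed, and for C3ar1, which was near 0 in them. The bases end just before the annotated first exon, run 5′ to 3′ on the strand of the gene and come from RefSeq on GRCm38.p6. Capitals mark matches on either strand to the motif letters of C/EBP (TTGCNNAA), NF-kappaB (GGG, any 2 bases, TTTCC) or a TATA box (TATAAA). Matches to an interferon-stimulated response element (GAAA, any 2 bases, GAAA) and to a GAS element (TTCNNNGAA) were also searched.
C3, chr17:57228137-57228386, minus strand: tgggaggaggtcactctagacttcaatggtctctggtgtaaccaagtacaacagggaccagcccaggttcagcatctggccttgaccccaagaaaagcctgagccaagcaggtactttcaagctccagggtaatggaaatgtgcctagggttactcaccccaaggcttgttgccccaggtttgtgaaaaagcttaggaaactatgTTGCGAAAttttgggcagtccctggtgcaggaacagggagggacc
C1s1, chr6:124542360-124542609, minus strand: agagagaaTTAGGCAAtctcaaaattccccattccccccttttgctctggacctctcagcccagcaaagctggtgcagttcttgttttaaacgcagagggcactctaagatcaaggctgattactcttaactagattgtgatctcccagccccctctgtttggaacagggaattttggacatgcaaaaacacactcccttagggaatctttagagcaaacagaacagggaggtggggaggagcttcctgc
C3ar1, chr6:122856162-122856407, minus strand: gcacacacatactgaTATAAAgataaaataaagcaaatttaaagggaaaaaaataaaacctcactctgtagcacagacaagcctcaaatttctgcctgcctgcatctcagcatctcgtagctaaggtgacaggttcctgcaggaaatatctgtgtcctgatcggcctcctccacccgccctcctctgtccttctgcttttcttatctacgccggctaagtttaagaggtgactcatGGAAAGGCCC

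The C/EBP letters lay 38 to 45 bases before the RefSeq start of C3 and 235 to 242 bases before that of C1s1, and 9.56% of 32851 upstream windows of 250 bases hold them. The C3ar1 window held the NF-kappaB letters 5 to 14 bases and TATAAA 230 to 235 bases before the start, against 1.41% and 12.4% of all windows. The response element, held by 2.98% of windows, and the GAS element, held by 7.02%, were matched in none of the windows of C3, C1s1, C1ra, C5ar1 and C3ar1. Most of the windows of C1ra and C5ar1 lies inside annotated first exons and is not printed, and C4b, Cfb and Serping1 were not in the promoter table. A match describes these letters only.

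The first question was which of the genes the cultured tumor cells transcribe. A gene was counted as made by cultured cells where its FPKM, a level scaled to transcript length and to the depth of the library, was at least 1 in all 3 cultures. CT-26 cultures passed for C1s1 and C1ra, and Colon 26 cultures for C1s1, C1ra and C3. The proteases of the classical pathway were thus measured in both lines, and C3, the protein on which all pathways meet, reached this level in Colon 26 alone.

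C1s1 stood at 24.4, 22.6 and 22.9 FPKM in the CT-26 cultures and at 17.3, 17.5 and 17.6 FPKM in the Colon 26 cultures, and the lines did not overlap. C1ra stood at 10.1, 10.5 and 10.7 FPKM in CT-26 and at 11.1, 11.3 and 10.7 FPKM in Colon 26, and the lines overlapped. C3 stood at 0.546, 0.636 and 0.682 FPKM in CT-26 and at 4.73, 4.91 and 5.65 FPKM in Colon 26. For C3 every Colon 26 culture was above every CT-26 culture.

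The other members were low in culture. Cfb was at 0.0761 to 0.144 FPKM in CT-26 and 0.426 to 0.593 FPKM in Colon 26 cultures. Serping1 was at 0.354 to 0.370 FPKM in CT-26 and 0.0712 to 0.115 FPKM in Colon 26, and C4b at 0.204 to 0.278 FPKM and 0.110 to 0.138 FPKM. Neither receptor came near 1 FPKM in culture. C5ar1 had no more than 1 count in any CT-26 culture and no more than 2 in any Colon 26 culture, and C3ar1 had 8 to 9 counts per CT-26 culture and no more than 1 per Colon 26 culture.

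**Figure D1:**
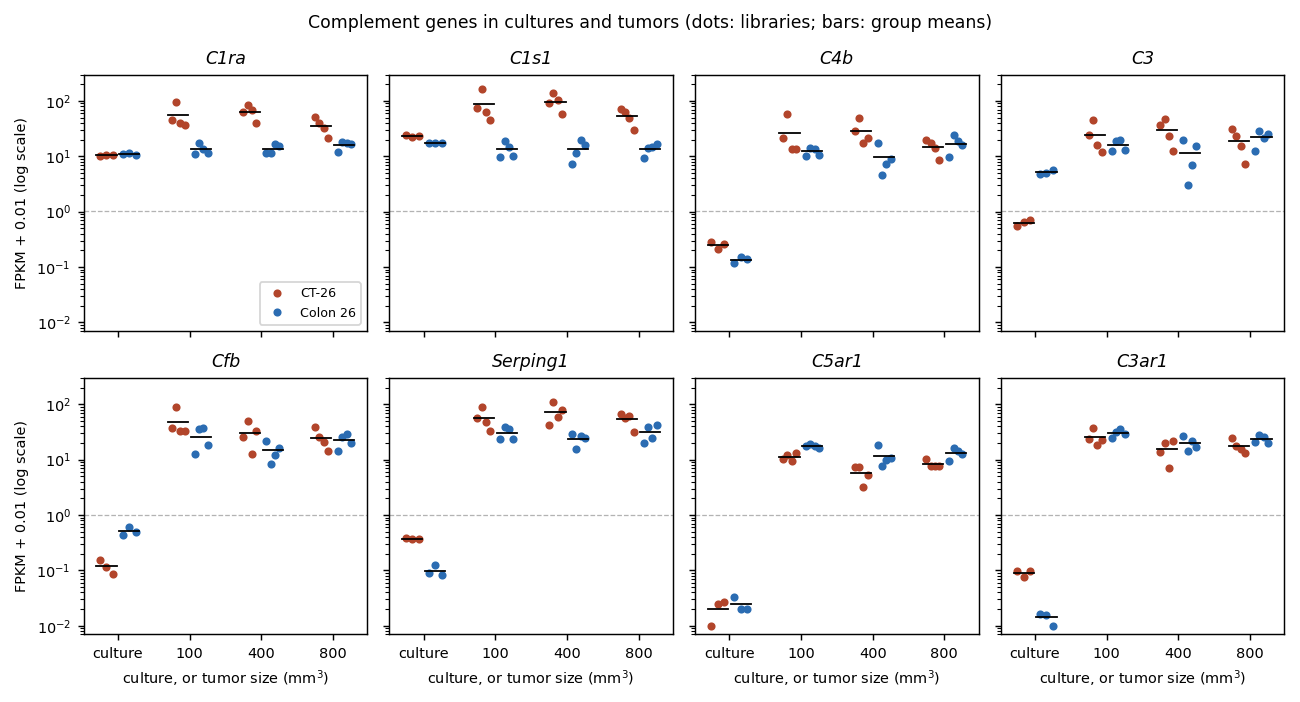
FPKM (plus 0.01, log axis) of the 8 complement genes in each library, by culture or tumor size in mm3, with CT-26 in red, Colon 26 in blue, black bars at group means and a dashed line at 1 FPKM. C1ra and C1s1 sit above the line in every culture, C3 only in Colon 26 cultures (4.73 to 5.65), and all 8 genes sit above it in every tumor.

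A gene was called where edgeR's quasi-likelihood test gave a Benjamini-Hochberg adjusted p of at most 0.1 and the log2 fold change was at least 1 in size. Between the cultures 3 of the 6 members tested were called, where 22.9% of all genes tested were. C3 was 8.07-fold higher in Colon 26 (log2 fold change 3.01, SE 0.10, adjusted p = 1.1e-13). Cfb was 4.66-fold higher (log2 fold change 2.22, SE 0.30, adjusted p = 4.8e-06), and Serping1 4.08-fold lower (log2 fold change -2.03, SE 0.36, adjusted p = 7.5e-05), both at under 1 FPKM. On log2(FPKM + 1) both fall short of the fold threshold, with differences of 0.44 and -0.33. For C1s1 the log2 fold change was -0.43 (SE 0.04, adjusted p = 1.2e-08), for C1ra 0.06 (SE 0.04, adjusted p = 0.19) and for C4b -0.98 (SE 0.24, adjusted p = 0.0015). C5ar1 and C3ar1 did not pass the filter on low counts.

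Of the low members Serping1, C4b and C3ar1 were higher in CT-26 cultures and Cfb in Colon 26 cultures, and leukocyte genes went in both directions. The C1q chains, which macrophages make, were at 0.315 to 0.641 FPKM (C1qa), 0.421 to 0.561 FPKM (C1qb) and 0.388 to 0.485 FPKM (C1qc) in CT-26 cultures, and at no more than 0.0267, 0.0466 and 0.0692 FPKM in Colon 26 cultures. Ptprc, the pan-leukocyte marker, was at 0.0203 to 0.0452 FPKM in CT-26 and no more than 0.0164 FPKM in Colon 26. Itgb2 and Itgax, which encode leukocyte integrins, were lower in CT-26 cultures, and neither was called. They were at 1.24 to 1.47 and 0.0532 to 0.124 FPKM against 1.56 to 1.68 and 0.131 to 0.247 FPKM. Itgam, which encodes another leukocyte integrin, was higher in CT-26 cultures, at 0.0627 to 0.1004 FPKM against 0.015 to 0.0273 FPKM. The sum of 6 macrophage markers was 61.0 to 64.1 FPKM in CT-26 and 18.3 to 20.6 FPKM in Colon 26 cultures, and Cd68 alone made that difference, at 48.3 to 52.2 and 2.73 to 3.62 FPKM. Of the 4 macrophage markers tested Cd68 was the 1 called, the log2 fold changes of Mrc1, Mertk and Cd14 were 0.57, 0.66 and 0.38, and Adgre1 was at the floor of no more than 3 counts per library in both lines. Csf1r, also a macrophage marker, averaged 0.1157 FPKM in CT-26 and 0.01367 FPKM in Colon 26 cultures, at the floor in Colon 26 alone. Of the 5 T cell markers 4 were at the floor in CT-26 cultures, as were all 6 neutrophil markers. The part of these traces in the values of Serping1, C4b and C3ar1 was not tested.

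The next question was how culture levels compare with those of tumors. In CT-26 all 8 members were called higher in tumors of 100 mm3 than in culture, where 32.2% of all genes tested were called and 22.2% were called higher. In Colon 26, 6 of 8 were called higher, where 26.9% of genes were called and 20.8% were called higher. The 2 exceptions were C1s1 and C1ra. The median log2 fold change of the 8 members was 7.04 in CT-26 and 6.18 in Colon 26, beside 0.06 and 0.05 over all genes tested.

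C1s1 in the CT-26 tumors of 100 mm3 reached 73.6, 166, 63.2 and 45.2 FPKM, all above its cultures, a 3.79-fold rise (log2 fold change 1.92, SE 0.43, adjusted p = 0.0039). In the Colon 26 tumors of this size it was at 9.60, 19.0, 14.4 and 10.3 FPKM, where 3 of 4 were below the cultures (log2 fold change -0.36, SE 0.21, adjusted p = 0.14). C1ra rose 5.29-fold in CT-26 (log2 fold change 2.40, SE 0.36, adjusted p = 0.00044), whereas in Colon 26 its log2 fold change was 0.30 (SE 0.15, adjusted p = 0.10). C3 rose 39.8-fold in CT-26 (log2 fold change 5.31, SE 0.56, adjusted p = 6.2e-05) and 3.15-fold in Colon 26 (log2 fold change 1.65, SE 0.18, adjusted p = 3.1e-05).

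Members that were low in culture rose furthest. Cfb rose 457-fold in CT-26 (log2 fold change 8.84, SE 0.66, adjusted p = 9.7e-06) and 52.8-fold in Colon 26 (5.72, SE 0.50, adjusted p = 7.4e-06). Serping1 rose 156-fold in CT-26 and 344-fold in Colon 26, with log2 fold changes of 7.29 (SE 0.49) and 8.43 (SE 0.35). C4b, which supplies the C4 protein that C1s cleaves, rose 111-fold and 99.8-fold (log2 fold changes 6.79, SE 0.77, and 6.64, SE 0.20). For C5ar1 the ratio of summed counts, scaled to library totals, was 1044 in CT-26 (95% exact counting interval 289 to 8625) and 1276 in Colon 26 (498 to 4686). For C3ar1 it was 7444 in Colon 26 (2060 to 61480), and in CT-26 the rise was 319-fold (log2 fold change 8.32, SE 0.40, adjusted p = 1.3e-06). Such wide intervals come from the 2, 4 and 2 counts in the cultures, and they cover counting error only.

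Set against the mean of 100 mm3 tumors of the same model, the mean culture level was 26.7% for C1s1, 19.1% for C1ra and 2.53% for C3 in CT-26. In Colon 26 it was 131% for C1s1, 83.1% for C1ra and 32.4% for C3. For Cfb, C4b and Serping1 it was 0.224%, 0.911% and 0.640% in CT-26 and 1.94%, 1.03% and 0.289% in Colon 26. C1qa, a macrophage product, stood at 0.132% and 0.00674%.

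**Figure D2:**
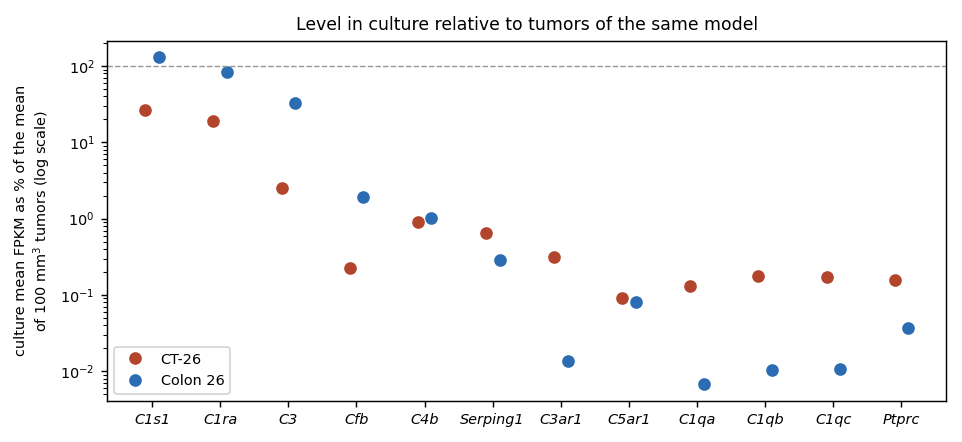
Mean FPKM in culture as a percentage (log axis) of the mean FPKM in 100 mm3 tumors of the same model, for the 8 members and for the macrophage and leukocyte genes C1qa, C1qb, C1qc and Ptprc, with the dashed line at 100%. C1s1, C1ra and C3 lie highest in both models, and C1s1 of Colon 26 lies above the line at 131%.

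Whether the difference between the models changed from culture to tumor was tested as an interaction over all 30 libraries. It was called for 5 of 8 members, where 16.7% of all genes were. The Colon 26 over CT-26 difference moved down by 3.65 for C3 (SE 0.82, adjusted p = 0.00082), by 3.10 for Cfb (SE 1.07, adjusted p = 0.023), by 2.27 for C1s1 (SE 0.54, adjusted p = 0.0014) and by 2.09 for C1ra (SE 0.42, adjusted p = 0.00025), all on the log2 scale. For C3ar1 the fitted change was 4.26 (SE 1.44, adjusted p = 0.02), but its Colon 26 cultures were at the floor, so its size depends on the count added in the fit, and with limma on log2(FPKM + 1) it was 0.37 and the call was lost (adjusted p = 0.48). For C4b the change was -0.13 (SE 1.02, adjusted p = 0.96) and for Serping1 1.15 (SE 1.03, adjusted p = 0.42).

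In tumors the question was how the models differ at a given size. C1s1 and C1ra, the proteases of the C1 complex, were called lower in Colon 26 at all 3 sizes, and these were the only members with that pattern. At 100 mm3 3 of 8 members were called, all lower in Colon 26 (13.2% of all genes were called, 7.06% lower). At 400 mm3 6 of 8 were called, again all lower (14.3%, 7.79% lower), and at 800 mm3 2 of 8 (14.1%, 7.62% lower). The median log2 fold change of the members was -0.94, -1.58 and -0.05 at the 3 sizes, beside -0.002, 0.03 and -0.006 over all genes tested.

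C1s1 was measured at 92.3, 138, 102 and 57.3 FPKM in the CT-26 tumors of 400 mm3 and at 7.36, 11.6, 20.1 and 16.2 FPKM in those of Colon 26. At 800 mm3 it was at 71.6, 62.7, 49.9 and 29.8 FPKM in CT-26 and at 9.23, 14.2, 14.6 and 16.6 FPKM in Colon 26. The models did not overlap at any size. C1s1 was 6.76-fold lower in Colon 26 at 100 mm3 (log2 fold change -2.76, SE 0.42, adjusted p = 7e-04), 7.39-fold lower at 400 mm3 (-2.89, SE 0.38, adjusted p = 0.00036) and 4.10-fold lower at 800 mm3 (-2.04, SE 0.25, adjusted p = 9.4e-05). By group mean the order of its levels ran from CT-26 tumors of 400 mm3 (97.5 ± 33.3 FPKM, SD, n = 4) through those of 100 mm3 (87.1 ± 54.2) and 800 mm3 (53.5 ± 18.1) to CT-26 cultures (23.3 ± 0.96, n = 3), Colon 26 cultures (17.5 ± 0.13) and Colon 26 tumors (13.3 ± 4.32 to 13.8 ± 5.51). The 3 tumor groups of each model overlapped each other. CT-26 tumors of 800 mm3 (29.8 to 71.6 FPKM) did not overlap the CT-26 cultures (22.6 to 24.4 FPKM), the next group in this order. C1s1 overlaps the antisense gene Gm16567 by 576 exon bases, and the handling of strand was not given in the sources used here.

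C1ra was measured at 45.7, 96.3, 40.3 and 36.6 FPKM in CT-26 tumors of 100 mm3 and at 10.9, 17.5, 13.5 and 11.3 FPKM in those of Colon 26. At 400 mm3 the values were 63.7, 83.2, 68.0 and 40.1 FPKM in CT-26 and 11.4, 11.3, 16.5 and 15.6 FPKM in Colon 26, and at 800 mm3 50.6, 39.7, 32.2 and 20.98 FPKM and 11.9, 18.3, 17.4 and 16.9 FPKM. Here too the models did not overlap at any size. C1ra was 4.26-fold lower in Colon 26 at 100 mm3 (log2 fold change -2.09, SE 0.32, adjusted p = 0.00072), 4.88-fold lower at 400 mm3 (-2.29, SE 0.25, adjusted p = 0.00014) and 2.32-fold lower at 800 mm3 (-1.21, SE 0.23, adjusted p = 0.0013). Colon 26 tumors (13.3 ± 3.02, 13.7 ± 2.71 and 16.1 ± 2.89 FPKM at 100, 400 and 800 mm3) lay near the cultures of both lines (11.03 ± 0.30 and 10.4 ± 0.32 FPKM). The paralog C1rb holds 26.3% of the 150-base windows of C1ra, so a share of its counts depends on how reads were divided.

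**Figure D3:**
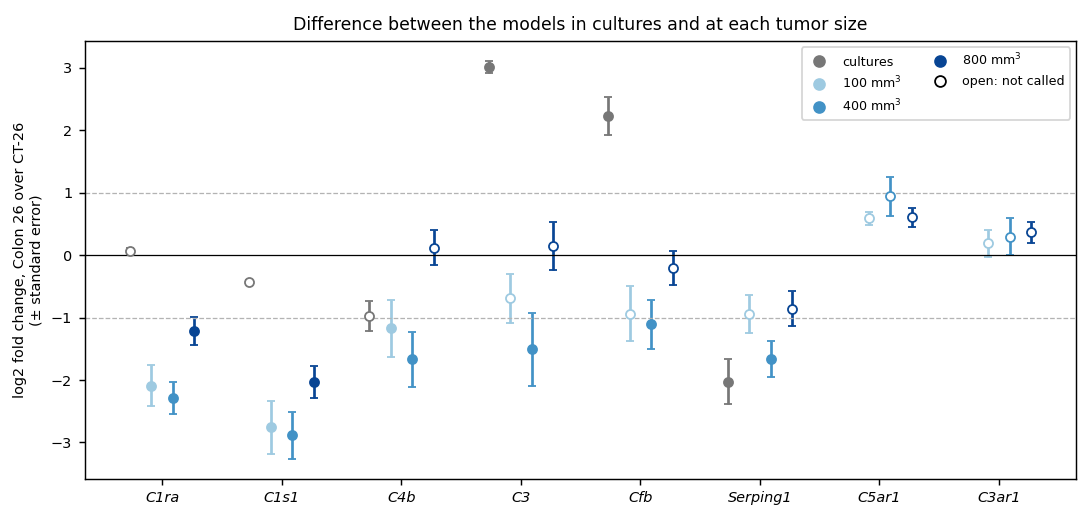
Log2 fold change of Colon 26 over CT-26 with its standard error for each member in cultures (grey) and in tumors of 100, 400 and 800 mm3 (light to dark blue), filled where called and open where not, with dashed lines at the fold threshold. C1ra and C1s1 lie near 0 in culture and below -1 at every tumor size, while C3 moves from 3.01 in culture to between -1.51 and 0.15 in tumors.

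C4b and C3 differed between the models less evenly. C4b was at 21.8, 57.8, 13.5 and 13.4 FPKM in CT-26 tumors of 100 mm3 and at 10.2, 14.4, 13.8 and 10.5 FPKM in those of Colon 26, and the groups overlapped. It was called 2.25-fold lower in Colon 26 (log2 fold change -1.17, SE 0.46, adjusted p = 0.06). The call was lost with limma on log2(FPKM + 1) (-0.81, adjusted p = 0.13) and on log2(FPKM + 0.1) (-0.85, adjusted p = 0.13). Without CT-26 tumor replicate 2, the highest library, the log2 fold change was -0.47 and the call was lost (adjusted p = 0.11), and it was also lost without Colon 26 replicates 1, 3 or 4 (log2 fold changes -1.09, -1.22 and -1.10). At 400 mm3 C4b was 3.19-fold lower (-1.67, SE 0.44, adjusted p = 0.013), with 28.3, 49.6, 17.3 and 21.4 FPKM in CT-26 against 17.7, 4.54, 7.34 and 9.03 FPKM in Colon 26, overlapping by 1 tumor of each model. At 800 mm3 the log2 fold change was 0.12 (SE 0.28, adjusted p = 0.75). The paralog C4a holds 7.48% of the 150-base windows of C4b, so a share of the counts of C4b depends on how reads were divided.

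C3 was at 24.7, 45.7, 15.97 and 11.9 FPKM in CT-26 tumors of 100 mm3 and 12.2, 18.5, 19.4 and 12.8 FPKM in Colon 26, where the groups overlapped (log2 fold change -0.69, SE 0.39, adjusted p = 0.17). At 400 mm3 it was at 36.4, 47.9, 23.5 and 12.4 FPKM in CT-26 and 19.6, 3.01, 6.89 and 15.6 FPKM in Colon 26 and was called 2.84-fold lower in Colon 26 (-1.51, SE 0.58, adjusted p = 0.064). The C3 call was lost without CT-26 replicate 1 (log2 fold change -1.40, adjusted p = 0.13), CT-26 replicate 2 (-1.20, adjusted p = 0.16) or Colon 26 replicate 3 (-1.34, adjusted p = 0.15). At 800 mm3 C3 was at 31.4, 23.0, 15.1 and 7.18 FPKM in CT-26 and 12.3, 29.1, 21.5 and 25.8 FPKM in Colon 26 (0.15, SE 0.39, adjusted p = 0.77). CT-26 cultures were lowest of the 8 groups for C3 and Colon 26 cultures next, and the 6 tumor groups, from 11.3 ± 7.64 to 30.04 ± 15.5 FPKM (SD, n = 4), each overlapped their neighbours.

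Cfb was called lower in Colon 26 at 400 mm3 (log2 fold change -1.11, SE 0.39, adjusted p = 0.047), with 25.9, 49.9, 12.7 and 33.0 FPKM in CT-26 and 8.50 to 22.2 FPKM over the 4 tumors of Colon 26, and the groups overlapped. The Cfb call was lost without CT-26 replicate 2 (log2 fold change -0.75, adjusted p = 0.13), Colon 26 replicate 2 (-0.92, adjusted p = 0.11) or Colon 26 replicate 3 (-1.03, adjusted p = 0.11). With limma on log2(FPKM + 1) and on log2(FPKM + 0.1) it fell short of the fold threshold (-0.93 and -0.97). At 100 and 800 mm3 its log2 fold changes were -0.94 (SE 0.44, adjusted p = 0.11; called without CT-26 replicate 3 or 4 or Colon 26 replicate 3, at -1.08, -1.09 and -1.17) and -0.21 (SE 0.27, adjusted p = 0.54). The readthrough gene Gm20547 holds 61.8% of the 150-base windows of Cfb and shares 2246 exon bases on the same strand, so the counts of Cfb depend on how reads were divided.

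Serping1, the C1 inhibitor, was at 56.3, 90.6, 47.0 and 32.8 FPKM in CT-26 tumors of 100 mm3 and 24.1, 39.4, 35.3 and 23.2 FPKM in Colon 26, and its log2 fold change of -0.94 (SE 0.31, adjusted p = 0.031) missed the fold threshold. At 400 mm3 it was at 42.5, 111, 58.8 and 78.9 FPKM in CT-26 and 28.9, 15.5, 26.9 and 24.7 FPKM in Colon 26. Here the models did not overlap, and Serping1 was 3.17-fold lower in Colon 26 (-1.66, SE 0.29, adjusted p = 0.0018). At 800 mm3 it was at 67.2, 57.8, 62.9 and 31.4 FPKM against 19.8, 38.8, 24.9 and 42.9 FPKM (-0.86, SE 0.27, adjusted p = 0.024), again under the fold threshold. Serping1 was called at 100 mm3 without CT-26 replicate 3 or 4 or Colon 26 replicate 2 or 3 (-1.01 to -1.14), and at 800 mm3 without replicate 4 of either model (-1.05 and -1.04).

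Of the receptors C5ar1 pointed the other way, and for C3ar1 the models overlapped at every tumor size. C5ar1, the C5a receptor of myeloid cells, was at 10.4, 11.95, 9.63 and 13.5 FPKM in CT-26 tumors of 100 mm3 and at 17.9, 19.0, 17.5 and 16.4 FPKM in those of Colon 26, with no overlap. Its log2 fold change was 0.59 (SE 0.10, adjusted p = 0.0014) at 100 mm3, 0.94 (SE 0.31, adjusted p = 0.036) at 400 mm3 and 0.60 (SE 0.15, adjusted p = 0.0069) at 800 mm3, under the fold threshold each time. At 400 mm3 it was called without CT-26 replicate 1 or 2 or Colon 26 replicate 2 or 3 (1.002 to 1.09). It was also called there by edgeR with scaling to library size only (1.008, adjusted p = 0.034). At 400 mm3 it was at 7.44, 7.31, 3.14 and 5.26 FPKM in CT-26 against 18.4, 7.81, 9.78 and 10.6 FPKM in Colon 26. At 800 mm3 the models overlapped for C5ar1, at 7.62 to 10.4 FPKM in CT-26 and 9.60 to 16.45 FPKM in Colon 26. For C3ar1, the C3a receptor, the log2 fold changes were 0.19 (SE 0.21, adjusted p = 0.50), 0.30 (SE 0.30, adjusted p = 0.45) and 0.36 (SE 0.17, adjusted p = 0.096), and its tumors ranged from 7.21 to 37.5 FPKM in CT-26 and from 14.6 to 35.1 FPKM in Colon 26.

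Whether the members changed with growth was tested within each model, against the same tumors of 100 mm3 at both larger sizes. No member was called in any of the 4 comparisons by edgeR. Over all genes 1.14% were called at 400 mm3 and 0% at 800 mm3 in CT-26, and 0.083% and 0.338% in Colon 26. For the comparison with 0 genes, 800 over 100 mm3 in CT-26, DESeq2 called 38 of 14331. At an unadjusted p under 0.05 edgeR gave 2 and 1 of the 8 members at 400 and 800 mm3 in CT-26 and 3 and 0 in Colon 26. DESeq2 called 0 in each, and limma called 0 with a pseudocount of 1 and, with a pseudocount of 0.1, 1 in CT-26 at 400 mm3. The lowest value in CT-26 at 400 mm3 was that of C5ar1, -0.92 (SE 0.22, adjusted p = 0.053). Its fold change passed the threshold, with a log2 value of -1.004, when CT-26 tumor 100 replicate 3 was left out. Log2 fold changes of the members ran from -0.92 to 0.40 and from -0.95 to -0.04 at the 2 sizes in CT-26, and from -0.84 to 0.06 and from -0.42 to 0.49 in Colon 26. The change of the model difference from 100 mm3 was called for 0 of 8 members at 400 mm3 and at 800 mm3 by edgeR, DESeq2 and limma (0.163% and 0.228% of all genes by edgeR), with 0 and 2 members at an unadjusted p under 0.05. The counts of 3, 6 and 2 members at the 3 sizes were therefore not shown to differ.

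Within a group the members tended to be high or low in the same library. CT-26 tumor 100 replicate 2 was highest of 4 for 7 of 8 members and CT-26 tumor 800 replicate 1 for 8 of 8. Colon 26 tumor 400 replicate 2 was lowest for 7 of 8. The spread was widest for C3 in Colon 26 tumors of 400 mm3, where the highest was 6.50 times the lowest, followed by C3 in CT-26 tumors of 800 mm3 (4.38 times) and C4b in CT-26 tumors of 100 mm3 (4.31 times).

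Other markers moved with these differences. The summed FPKM of 9 interferon-induced genes was 464 to 1886 in CT-26 and 136 to 579 in Colon 26 tumors of 100 mm3, 639 to 1325 and 239 to 408 at 400 mm3, and 355 to 747 and 216 to 454 at 800 mm3. Of these 9 genes 6, 5 and 4 were called lower in Colon 26 at the 3 sizes and none higher. Over all genes tested 7.06%, 7.79% and 7.62% were called lower. In culture the same sum was 49.1 to 50.6 in CT-26 and 82.2 to 85.3 in Colon 26. The highest sum was that of CT-26 tumor 100 replicate 2. This library was also highest of its group for T cell markers (31.9 FPKM, the others 4.38 to 10.5) and Ptprc (39.6, the others 14.7 to 18.2). Macrophage and neutrophil sums were highest of the group in it as well. Its fibroblast, endothelial, epithelial, hepatocyte and adipocyte sums were not.

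The sum of 5 epithelial markers was 72.9 to 93.5 in CT-26 and 7.24 to 12.1 in Colon 26 tumors of 100 mm3, 65.1 to 85.5 and 2.15 to 10.2 at 400 mm3, and 63.2 to 129 and 4.36 to 16.2 at 800 mm3. The models did not overlap in this sum at any size, as for C1s1 and C1ra. Unlike C1ra, the sum was also apart in the cultures, at 23.9 to 24.4 in CT-26 and 2.90 to 3.075 in Colon 26. All 3 epithelial markers tested there were called lower in Colon 26. Krt18 and Krt20 were called lower in Colon 26 at each size, and 1 other marker was called higher at 100 mm3 (Cdh1) and at 800 mm3 (Krt8).

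Markers of other cell types differed less evenly. The sum of 6 fibroblast markers was 95.9 to 183 in CT-26 and 121 to 136 in Colon 26 at 100 mm3, 172 to 267 and 104 to 135 at 400 mm3, and 156 to 191 and 74.5 to 114 at 800 mm3, with 1 marker called lower at each size and 2, 2 and 1 called higher. The sum of 6 macrophage markers was 220 to 305 in CT-26 and 322 to 356 in Colon 26 at 100 mm3, 94.7 to 217 and 185 to 334 at 400 mm3, and 202 to 251 and 252 to 351 at 800 mm3, with 0, 1 and 0 markers called higher. Of 5 T cell markers 0, 4 and 0 were called lower. Of 6 neutrophil markers 4 passed the filter at each size, and of these 0, 4 and 3 were called lower (1 was called higher at 100 mm3). Over all genes tested 7.06%, 7.79% and 7.62% were called lower. Endothelial markers gave no call at any size, and adipocyte markers 1, higher in Colon 26 at 800 mm3 (2 of 4 tested there). Hepatocyte markers summed to no more than 1.496 FPKM in any tumor, and Ttr was at the floor in tumors of every group. Only 1 of the 5 hepatocyte markers was tested at each size, and it was called lower at 400 mm3. The part of epithelial markers, fibroblasts, macrophages, other cells and interferon-induced genes in the differences of the members was not tested.

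C1ra and C1s1 lie 6901 bases apart on chromosome 6, at chr6:124512405-124523443 (plus strand) and chr6:124530345-124542359 (minus strand) of GRCm38, in a cluster of 5 C1r and C1s family genes between 124493113 and 124636085. C1rl, C1rb and C1s2, the others, were called lower in Colon 26 tumors at all 3 sizes as well. C1s2 had log2 fold changes of -2.88 (SE 0.49), -2.76 (SE 0.42) and -1.75 (SE 0.26), and C1rb of -1.89 (SE 0.32), -2.32 (SE 0.36) and -1.27 (SE 0.29). C1rb holds 26.3% of the 150-base windows of C1ra, and C1s2 holds 2.46% of those of C1s1. The part of the division of reads in these values was not tested. C1rl was at 5.53 to 6.41 FPKM in CT-26 and 4.76 to 5.38 FPKM in Colon 26 cultures, and fell in Colon 26 tumors of 100 mm3 to 0.946 to 1.87 FPKM (log2 fold change over culture -1.84, SE 0.18, adjusted p = 1.8e-05). In CT-26 tumors of that size it was at 3.27 to 5.26 FPKM, also below every CT-26 culture, but was not called. CT-26 tumors of 800 mm3 (3.89 to 4.70 FPKM) lay below the cultures too, and those of 400 mm3 (4.42 to 6.70 FPKM) overlapped them. None of the 3 was called between the cultures.

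**Figure D4:**
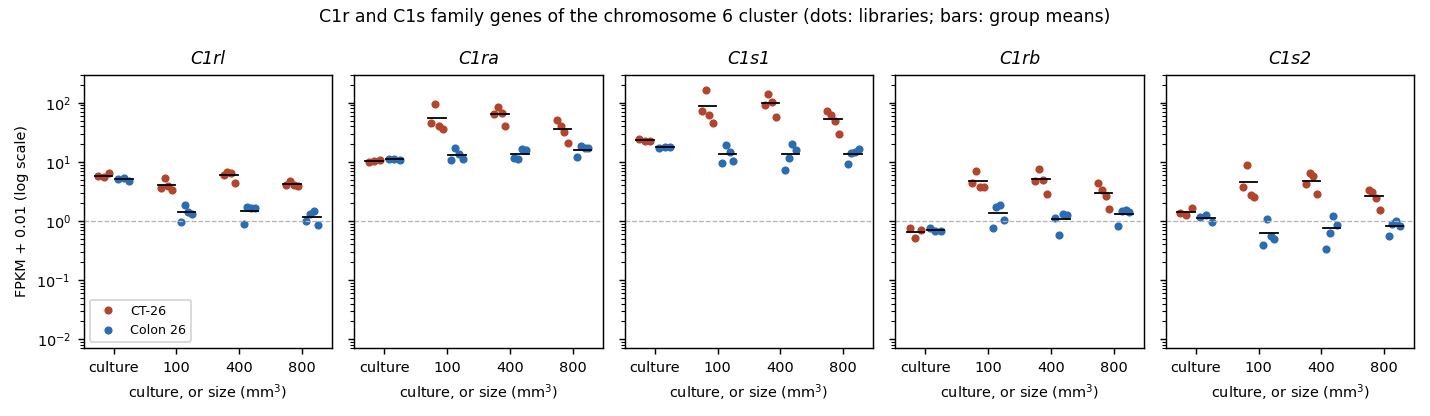
FPKM (plus 0.01, log axis) per library of the 5 C1r and C1s family genes of the chromosome 6 cluster in cultures and tumors of 100, 400 and 800 mm3, with CT-26 in red, Colon 26 in blue and black bars at group means. The models lie close together in culture for each gene and apart in tumors, with CT-26 higher. C1rl is below its cultures in Colon 26 tumors of every size and in CT-26 tumors of 100 and 800 mm3.

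Of 44 other complement genes 18 passed the filter in the cultures, with 3 called higher and 4 lower in Colon 26, where 22.9% of all genes tested were called. C2, the partner of C4 in the C3-cleaving enzyme, was at no more than 0.0166 FPKM in CT-26 and at 3.80 to 3.87 FPKM in Colon 26 cultures and was called, and Masp1, a protease of the lectin pathway, at 9.45 to 10.0 FPKM and 72.0 to 75.0 FPKM (2.91, SE 0.04, adjusted p = 1.7e-18). Clu, a fluid-phase inhibitor of the terminal complex, was 2.61-fold higher. The 4 called lower were the C1q chains and Cfp, which encodes properdin, the stabilizer of the alternative pathway enzyme, at 1.86 to 3.06 FPKM in CT-26 and 0.492 to 0.667 FPKM in Colon 26. Cr1l, which encodes the membrane inhibitor Crry, was high in both lines, at 35.8 to 37.8 and 34.6 to 35.8 FPKM.

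In tumors 2, 3 and 4 of the other genes were called higher in Colon 26 at 100, 400 and 800 mm3 and 4, 6 and 5 lower, of 28, 26 and 28 tested. Over all genes tested 13.2%, 14.3% and 14.1% were called at these sizes. C2 was higher at each size, with log2 fold changes of 1.22 (SE 0.36), 1.37 (SE 0.53) and 1.98 (SE 0.30). C5ar2, the second C5a receptor, was lower at each size (-1.81, SE 0.28; -1.98, SE 0.22; and -1.87, SE 0.33), at under 1 FPKM in all tumors. Cd55, a membrane inhibitor, was lower at 400 and 800 mm3 (-1.42, SE 0.57, and -1.47, SE 0.34). Further calls were Fcna (1.03) higher and C4a (-1.33) lower at 400 mm3, and Hc (1.92) and Clu (1.02) higher at 800 mm3. None of C1qa, C1qb and C1qc was called between the models in tumors, where C1qa ranged from 47.9 to 457 FPKM in CT-26 and from 194 to 489 FPKM in Colon 26.

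From culture to tumors of 100 mm3, 19 of the 25 other genes tested rose in CT-26 and 1 fell, and 17 of 28 rose and 3 fell in Colon 26. Over all genes, of 15370 tested in CT-26 3406 rose and 1546 fell, and of 15946 in Colon 26 3321 rose and 975 fell. The C1q chains reached 215 to 457 FPKM in CT-26 and 231 to 423 FPKM in Colon 26. Cd59a, a membrane inhibitor, reached 0.369 to 0.845 FPKM in CT-26 and 0.568 to 0.985 FPKM in Colon 26 and was at no more than 4 counts in any culture. Masp2 was the gene that fell in CT-26 (log2 fold change -2.49, SE 0.28), and C1rl, Masp1 (-1.73, SE 0.06) and Masp2 (-2.41, SE 0.24) fell in Colon 26. Mbl1 and Mbl2, which encode recognition proteins of the lectin pathway, were listed at 0 in all libraries. Of 7 terminal components only 2 passed the filter for this comparison in CT-26 and 3 in Colon 26. Of those tested 1 was called higher in tumors of 100 mm3 than in culture in CT-26 (C6). In Colon 26, 2 were called higher (C6 and Hc, which encodes C5). Over all genes tested 22.2% were called higher in CT-26 and 20.8% in Colon 26. C6 had 0 counts in every culture and reached 0.168 to 0.807 FPKM in CT-26 and 0.368 to 0.460 FPKM in Colon 26 tumors of that size, and at most 1.88 FPKM in any tumor. C8b was listed at 0 in all libraries, and Hc was under 1 FPKM in every library.

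**Figure D5:**
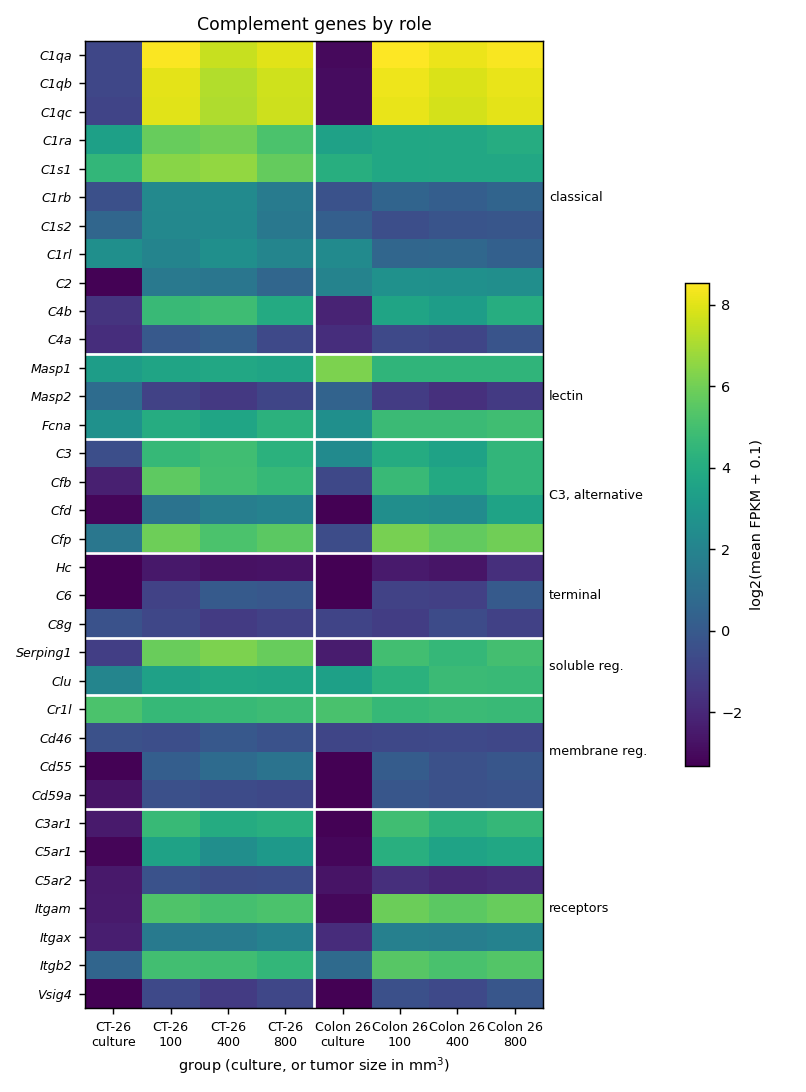
Mean level of the 8 members and 26 other complement genes in each group as log2(mean FPKM + 0.1), by role, with columns for the culture and the tumors of 100, 400 and 800 mm3 of each model. The C1q chains are highest in tumors of both models, C1ra, C1s1 and Cr1l are well above 1 FPKM in all groups, and Masp1 is highest in Colon 26 cultures.

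The genes whose group means most resembled those of each member over the 8 groups, by Pearson's r of mean log2 CPM among 10630 genes, were listed as a description, since all points share the same libraries. For C1s1 these were C1s2 (r = 0.991), Crocc2 (0.989) and Herc6 (0.984), and for C1ra Xaf1 (0.987), C1rb (0.986) and Stat2 (0.981). C1s2 and C1rb share sequence with these members, and the part of the division of reads in their r was not tested. C3 was closest to Psmb8 (0.985), Nfkbia (0.980) and Gsdmd (0.980). C4b and Serping1 shared Dpt (0.997 for both), a protein of the extracellular matrix, and Sfxn5 (0.996 for both), followed by Serping1 for C4b (0.995) and Fabp5 for Serping1 (0.996). Cfb was closest to Ccl2 (0.995). Marcks (0.994) and Vegfd (0.993) followed. C5ar1 was closest to Ptpro, Tnfrsf11a and Tnfaip8l2 and C3ar1 to Inpp5d, Ctss and Laptm5. For the members that were near 0 in culture, cultures and tumors form separate clusters, which by itself gives a high r.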

How the data were processed

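The authors sequenced poly-A RNA libraries and used Array Studio with the annotation of Ensembl release 78 to count reads per gene. The values the authors deposited are estimated counts, not normalized, and FPKM, scaled to length and depth. The aligner, the genome build, the handling of strand and of reads that fit several genes were not given in the sources used here. Of the deposited non-zero estimated counts 22.64% were not whole (tolerance 1e-06), and counts were rounded before testing, although the designs had assumed raw counts. No column of values was left unused (0 columns). The authors' notes name DESeq2 1.24.0.

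Groups were taken from the labels. Replicate numbers are only names given in accession order, and no label says whether cultures were grown separately, so p-values may measure technical spread there. Each model comparison was fitted on its own groups by edgeR 4.0.16 in R 4.3.3 (quasi-likelihood test, TMM, filterByExpr, Benjamini-Hochberg over all genes tested), growth on the 12 tumors of a model, and interactions on all 30 libraries. Thresholds were the study's, an adjusted p of at most 0.1 and a log2 fold change of at least 1. On simulated counts with 200 changed genes, the test of cultures recovered 191 and called 8 unchanged genes among 14071 genes, and that of 100 mm3 tumors recovered 182 and called 12 among 15170. The interaction of culture and 100 mm3 tumors recovered 166 and called 6 among 16633. All planted changes were well above the fold threshold, so recovery of changes near it was not measured. Alternatives were DESeq2 1.42.0, RLE factors, library size only, no filter, limma 3.58.1 on log2 FPKM with a pseudocount of 1 or of 0.1, all libraries in one fit, a stricter adjusted p (0.05) and leaving out each library. Identifiers were matched to GENCODE symbols for 52207 of 53431 genes (97.71%). Of 42 pairs of replicates none agreed within sampling noise.

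The members and all lists were chosen with earlier results of these data known. The 8 members are named in every comparison, and of the 44 other complement genes those called are counted and the 3 of largest absolute log2 fold change in a direction named, with the C1q chains, the paralogs of members and the membrane regulators. Other genes were named after their values were seen, and 1 gene that enters the counts is not reported here. Likeness used the 8 group means of log2 CPM, among genes with a mean CPM of at least 10 in a group. Reads carry no molecular identifiers, so intervals and the floor of 3 counts describe counting error alone.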

Additional observations from a re-analysis of the deposited data

Results flagged for a closer look

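In 5 members the difference between the models in culture differed from that in tumors of 100 mm3 by the test of the interaction (edgeR, 30 libraries). The change of the Colon 26 over CT-26 difference was -3.65 for C3, -3.10 for Cfb, -2.27 for C1s1, -2.09 for C1ra and 4.26 for C3ar1 on the log2 scale, with adjusted p of 0.00082, 0.023, 0.0014, 0.00025 and 0.02. Cfb rests on cultures under 1 FPKM and C3ar1 on Colon 26 cultures at the floor, with the C3ar1 call lost (0.37, adjusted p = 0.48) with limma on log2(FPKM + 1). Library series and cell line cannot be told apart in the cultures, nor library series and growth as a tumor between cultures and tumors.

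In 3 of 48 groups of 4 tumors, 1 tumor stood far from the other 3 by Dixon's test on log2 CPM, about as many as chance flags (1 in 20). Cfb reached 7.96 in 1 CT-26 tumor of 100 mm3 (replicate 2), beside 6.72 in the next. Serping1 was at 5.83 in 1 CT-26 tumor of 800 mm3 (replicate 4), beside 6.73 in the next, and C5ar1 at 4.67 in another (replicate 1), beside 4.31.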

How the results depend on the processing

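No paired analysis was possible because the labels carry no replicate numbers. Counts of members called held within 1.5 times under all alternatives except the following. Between cultures limma on log2(FPKM + 1) called 1 member in place of 3. For CT-26 at 400 over 100 mm3, limma on log2(FPKM + 0.1) called 1 in place of 0. At FPKM of at least 0.1, 5 members in each line counted as made by cultured cells, in place of 2 in CT-26 and 3 in Colon 26, and at CPM of at least 1, which is not per length, 4 in CT-26. Leaving out 1 library gave 4 to 5 members between cultures (5 without CT-26 culture replicate 2 or Colon 26 culture replicate 2), 2 to 5 at 100 mm3 (5 without CT-26 replicate 3 or 4), 0 to 1 at 400 over 100 mm3 in CT-26 (1 without 100 mm3 replicate 3) and 0 to 1 in Colon 26 (1 without 400 mm3 replicate 1). Every such fit of cultures also called a receptor gene that had not passed the filter before, and those that gave 5 added C4b. Of 1164 recomputed values of single genes 1120 kept direction and call, 19 lost and 18 gained a call and 7 turned direction. Among those 7, the change of the model difference from culture to 100 mm3 for Serping1, 1.15, was -0.49 with limma on log2(FPKM + 1). Single libraries turned values near 0, with ranges of -0.13 to 0.48 for C3, -0.080 to 0.31 for C4b and -0.41 to 0.070 for Cfb at 800 mm3, and of -0.37 to 0.56 for C4b and -0.0068 to 0.76 for C5ar1 in the change from culture to 100 mm3. C1s1 and C1ra kept their calls at all 3 tumor sizes under every alternative. Over all genes, limma on log2(FPKM + 1) called 861 genes at 100 mm3, 951 at 400 mm3, 914 at 800 mm3 and 1519 between cultures, in place of 2038, 2176, 2192 and 3283, and without a filter 3469 were called at 800 mm3. It called 2648 and 1946 from culture to tumor, in place of 4952 and 4296, and 1245 in place of 2868 for the change of the model difference. In growth, DESeq2 called 38 genes for CT-26 at 800 mm3, and 29 and 111 for Colon 26, in place of 0, 13 and 53, and a fit of all 30 libraries 379 and 92 for CT-26 (179 and 0 in the design used) and 25 and 100 for Colon 26. At an adjusted p of 0.05 there were 32 and 0 for CT-26 at 400 and 800 mm3, and 5 and 28 for Colon 26. No scaling moved the median of all genes by over 0.1 (log2). At 1 or 2 counts in culture, depth limits the ratios of C5ar1 and C3ar1.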

Other observations

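The ratio of C1s1 to C1ra, both per length in FPKM, was 2.14 to 2.42 in CT-26 cultures and 1.55 to 1.64 in Colon 26 cultures. In tumors it was 1.23 to 1.73 in CT-26 and 0.644 to 1.22 in Colon 26, below the cultures of the same model in every tumor. C4b over its neighbor C4a was 0.999 to 1.63 in CT-26 and 0.536 to 0.768 in Colon 26 cultures, where both genes were under 1 FPKM, and 24.9 to 39.8 and 11.7 to 30.7 in tumors. C4a holds 7.48% of the 150-base windows of C4b, and the part of the division of reads in this ratio was not tested.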
